A study of Mus musculus with 4 samples.

Results

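The genes described here are 10 interferon-inducible GTPases of the mouse, 4 of the immunity-related GTPase (IRG) family (Irgm1, Irgm2, Igtp and Iigp1) and 6 guanylate-binding proteins (Gbp2, Gbp3, Gbp5, Gbp6, Gbp7 and Gbp9). They were taken by symbol from the 25239 genes of the count tables, and all 10 were found in each of the 4 libraries. RNA-seq was run on mouse B16 tumors, a transplantable melanoma line, grown subcutaneously on the 2 flanks of B6 animals. The mice were treated from day 7, and tissue was collected 12 days after ACT, an abbreviation left unexpanded in the labels.

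The TRP-1MV library came from mice given TRP-1MV cells by vein, TRP-1 T cells that carry the virus MV. Tyrp1 encodes the pigment enzyme TRP-1, the antigen in the name of these cells. In the headers MV appears as MYXV, by which myxoma virus is usually abbreviated. The MV left tumor library came from left tumors injected with free MV, and those mice were given TRP-1 T cells intravenously. The remote tumor library came from the right, uninjected tumors of that same treatment. The CTX library came from mice whose left tumors were injected with PBS, with no T cells or virus named in the label, and the flank it came from is not given. CTX was given to the mice by the peritoneal route the day before ACT and is shared by all 4 groups. With a single library per group, no replicate spread could be measured and no groups could be tested. An n of 2 stands in the labels, without a statement on pooling. The material is called a cell line in the source field and tumor tissue in the extraction protocol, and the libraries held RNA of both pigment cells and leukocytes.

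IRG and GBP proteins are large GTPases that interferon gamma, and to a lesser degree type I interferon, induces in most mouse cells. They act inside the infected cell, where they collect on the vacuoles of parasites and bacteria and on viral replication sites and help to break them up. The regulatory IRG proteins Irgm1, Irgm2 and Igtp sit on the cell's own membranes and hold the effector IRG proteins, of which Iigp1 is the best studied, inactive there. Their promoters are known for 2 elements, the interferon-stimulated response element (ISRE), bound by interferon regulatory factors, and the gamma-activated site (GAS).

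RefSeq promoter sequences (GRCm38.p6, the build also called mm10) were examined for 7 of the 10 genes, Irgm1, Irgm2, Igtp, Gbp2, Gbp3, Gbp5 and Gbp7. Promoters of Iigp1, Gbp6 and Gbp9 were not examined. The ISRE was searched on both strands as a pair of GAAA with any 2 bases between them, and the GAS as TTCNNNGAA, which reads alike on both strands, in 300 bases around each start, 250 before it and 50 after. The 7 genes have 8 promoters in the table, and 7 of the 8 held an ISRE, 1 for each gene, against 3.44% of the 32851 promoters in the table. The other promoter of Gbp3 held neither element. A GAS was found in 4 of them, Irgm2, Igtp, Gbp5 and Gbp7, against 8.30% of all promoters, and both elements together stood in 0.454% of all promoters. The sequences shown belong to the gene with the highest ratio in TRP-1MV and the MV left tumor (Gbp5), to the most abundant GBP (Gbp2) and to the 3 regulatory IRG genes, among which Igtp and Irgm2 hold alike elements and the ratios were unlike, a relation that was not tested. Each runs 5′ to 3′ and ends at the base before the start, and capitals mark the ISRE and GAS matches.
Gbp5, chr3:142496684-142496933, plus strand: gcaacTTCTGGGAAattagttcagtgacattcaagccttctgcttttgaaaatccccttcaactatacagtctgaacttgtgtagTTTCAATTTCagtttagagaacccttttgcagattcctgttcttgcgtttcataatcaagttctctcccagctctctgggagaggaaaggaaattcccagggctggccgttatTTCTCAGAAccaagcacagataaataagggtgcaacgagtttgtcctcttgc
Gbp2, chr3:142620543-142620662, plus strand: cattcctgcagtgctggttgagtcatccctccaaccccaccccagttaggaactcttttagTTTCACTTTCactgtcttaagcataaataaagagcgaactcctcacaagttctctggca
Igtp, chr11:58199436-58199555, plus strand: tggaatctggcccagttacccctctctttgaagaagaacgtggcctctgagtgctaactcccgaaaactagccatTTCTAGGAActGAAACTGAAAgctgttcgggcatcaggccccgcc
Irgm2, chr11:58214857-58214976, plus strand: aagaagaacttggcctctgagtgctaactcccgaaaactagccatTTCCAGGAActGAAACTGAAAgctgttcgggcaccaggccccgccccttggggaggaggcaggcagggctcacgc
Irgm1, chr11:48871421-48871540, minus strand: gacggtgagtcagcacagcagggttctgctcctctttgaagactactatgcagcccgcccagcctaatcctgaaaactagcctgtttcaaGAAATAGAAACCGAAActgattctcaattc
In Igtp and Irgm2 the GAS stood 2 bases before the ISRE. The longest run of identical bases shared by these promoters, 55 bases, lay upstream of both elements and outside the stretches shown. The same 2-base spacing was found in the related genes Tgtp1, Tgtp2 and Gm12185. Irgm1 held 2 overlapping ISRE matches between −30 and −15 and no GAS, and Gbp2 held 1 ISRE, read on the opposite strand, from −59 to −50. Gbp5 held an ISRE from −165 to −156 with a GAS on each side, at −245 to −237 and at −52 to −44. The RefSeq starts of Gbp5, Gbp2, Irgm1 and Irgm2 lie inside the longer GENCODE gene spans given next. A match describes the letters only, and none was tested for binding.

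In the mm10 annotation of GENCODE M21 the genes lie on 4 chromosomes. Irgm1 (48861968 to 48871683, minus strand) is on chromosome 11, where Igtp (58199556 to 58207591) and Irgm2 (58199618 to 58222782) overlap on the plus strand and share exon sequence. Gbp5 (142493978 to 142522344), Gbp7 (142530342 to 142550149), Gbp3 (142560026 to 142573209) and Gbp2 (142620602 to 142638008) follow each other on chromosome 3, all on the plus strand. Gbp9 (105077630 to 105139539) and Gbp6 (105270702 to 105293698) lie on the minus strand of chromosome 5, and Iigp1 (60376027 to 60392634) lies on chromosome 18. Near-identical copies limit some of the values that follow. Of the 50-base stretches in the transcripts of Gbp6, 70.7% also occur in another gene, mainly Gm43302 and Gbp10, and its count is therefore uncertain. The share was 12.7% for Gbp7, 11.8% for Igtp, 8.05% for Gbp9, 7.77% for Irgm2 and between 0.31% and 3.75% for the other 5 genes.

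Depth was 14802809 counts in TRP-1MV, 12375526 in the MV left tumor, 21790759 in the remote tumor and 20811605 in CTX. Levels are given as CPM, read counts set to a common library total, after scaling by the trimmed mean of M-values (TMM), and differences as log2 ratios with 95% exact binomial intervals in brackets. Counting error is all that these intervals hold, and variation between animals or preparations lies outside them. A call required a ratio of at least 2 in 1 direction and an interval without equality. The 13357 genes with a mean count of at least 10 were compared, and all 10 GTPase genes passed that minimum, with at least 52 reads in every library.

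The family as a whole was more abundant in TRP-1MV and the MV left tumor than in the remote tumor and CTX, and the GBP members accounted for most of that difference. The 10 genes together held 10953 reads in TRP-1MV and 9352 in the MV left tumor, against 9051 in the remote tumor and 9457 in CTX. After scaling this came to 680.1 and 692 CPM in TRP-1MV and the MV left tumor and to 455 and 493 CPM in the remote tumor and CTX. The 6 GBP genes summed to 318 CPM in TRP-1MV and 296 CPM in the MV left tumor, against 116 CPM in the remote tumor and 130.05 CPM in CTX. The GBP sum was 2.45-fold that of CTX in TRP-1MV (log2 ratio 1.29 [1.22, 1.36]) and 2.28-fold in the MV left tumor (1.19 [1.12, 1.26]). The 4 IRG genes summed to 362 CPM in TRP-1MV, 396 CPM in the MV left tumor, 339 CPM in the remote tumor and 363 CPM in CTX. That sum had a log2 ratio to CTX of −0.01 [−0.06, 0.05] in TRP-1MV and 0.12 [0.07, 0.18] in the MV left tumor. The 2 family sums thus separated in these libraries. Single genes overlapped, with Igtp at 0.62 and 0.80 above Gbp3 at 0.60 and 0.66 in TRP-1MV and the MV left tumor.

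**Figure D1:**
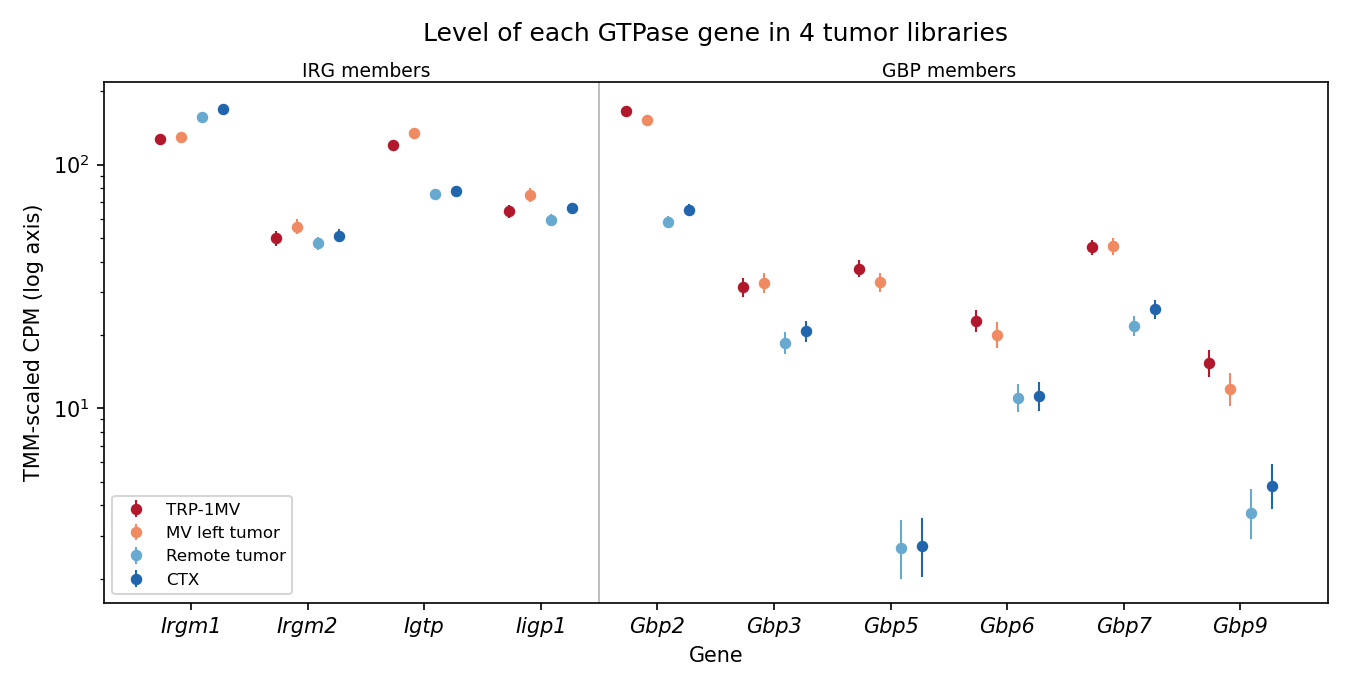
TMM-scaled CPM (log axis) of each gene in the 4 libraries, with 1 point per library and bars for the 95% counting interval. Gbp5 stands at 37.4 and 32.9 CPM in TRP-1MV and the MV left tumor and at 2.66 and 2.71 CPM in the remote tumor and CTX, while Irgm1 is lower in TRP-1MV and the MV left tumor than in the other two, an order that turns round on the housekeeping scale.

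Among the regulatory IRG genes, Irgm1 is the one whose loss leaves mice open to many intracellular infections. It had 128 CPM in TRP-1MV, 130.0 CPM in the MV left tumor, 157 CPM in the remote tumor and 168 CPM in CTX. It was the only one of the 10 genes whose interval lay below equality in both libraries with TMM scaling, with log2 ratios to CTX of −0.40 [−0.48, −0.32] in TRP-1MV and −0.37 [−0.46, −0.29] in the MV left tumor. Neither passed the rule, and both turned positive, to 0.18 and 0.21, when libraries were scaled on housekeeping genes. Irgm2 had 49.9 CPM in TRP-1MV, 55.6 CPM in the MV left tumor, 47.5 CPM in the remote tumor and 51.1 CPM in CTX. Its log2 ratios to CTX were −0.03 [−0.17, 0.10] in TRP-1MV, which turned positive under 4 other scalings, and 0.12 [−0.02, 0.26] in the MV left tumor, intervals that both include equality.

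Igtp, also called Irgm3, had higher ratios than the other regulatory genes. It had 119.9 CPM in TRP-1MV and 135 CPM in the MV left tumor, against 75.6 CPM in the remote tumor and 77.7 CPM in CTX. Its log2 ratio to CTX was 0.62 [0.53, 0.72] in TRP-1MV and 0.80 [0.70, 0.90] in the MV left tumor, past equality but short of the 2-fold rule. Igtp and Irgm2 share 11.8% of the 50-base stretches of Igtp, so part of their reads could be counted for either gene. The effector gene Iigp1, whose protein coats the vacuole of Toxoplasma, had 64.4 CPM in TRP-1MV, 75.0 CPM in the MV left tumor, 59.3 CPM in the remote tumor and 66.0 CPM in CTX. Its log2 ratio to CTX was −0.03 [−0.15, 0.08] in TRP-1MV, which turned positive under 4 other scalings, and 0.18 [0.06, 0.31] in the MV left tumor.

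Gbp5, which promotes assembly of the NLRP3 inflammasome in mouse macrophages, had the highest ratio of the family. It had 603 reads in TRP-1MV, 444 in the MV left tumor, 53 in the remote tumor and 52 in CTX. TRP-1MV and the MV left tumor were thus an order of magnitude above the other two, which differed from each other by 1 read. The log2 ratio to CTX was 3.79 [3.38, 4.23] in TRP-1MV, a 13.8-fold difference, and 3.60 [3.18, 4.04] in the MV left tumor, a 12.1-fold difference. Both passed the rule under every setting tried, a 4-fold limit included. Among all genes compared Gbp5 stood at percentile 93.9 in TRP-1MV and 94.1 in the MV left tumor.

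Gbp2, whose protein is recruited to the vacuoles of parasites and bacteria, was the most abundant GBP in every library. It had 166 CPM in TRP-1MV and 153 CPM in the MV left tumor, against 58.0 CPM in the remote tumor and 65.2 CPM in CTX. The log2 ratio to CTX was 1.34 [1.25, 1.44] in TRP-1MV and 1.23 [1.13, 1.33] in the MV left tumor, both called higher. Gbp9, the least abundant GBP in TRP-1MV and the MV left tumor, had 15.3 CPM in TRP-1MV and 12.0 CPM in the MV left tumor, against 3.72 CPM in the remote tumor and 4.80 CPM in CTX. It was also called higher, at 1.67 [1.32, 2.03] in TRP-1MV and 1.32 [0.94, 1.71] in the MV left tumor. Its transcripts overlap those of Gbp4 and Gbp8, so reads may be shared with these.

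The remaining 3 GBP genes lay near the 2-fold limit. Gbp6 had 22.8 CPM in TRP-1MV, 20.1 CPM in the MV left tumor, 11.1 CPM in the remote tumor and 11.2 CPM in CTX. Its log2 ratio to CTX was 1.03 [0.78, 1.28] in TRP-1MV, called higher, and 0.84 [0.58, 1.10] in the MV left tumor, not called, though the difference between these 2 ratios is within their counting intervals. Gbp7, which in mice helps to assemble the phagocyte oxidase, had 45.8 CPM in TRP-1MV and 46.2 CPM in the MV left tumor, against 21.8 CPM in the remote tumor and 25.4 CPM in CTX. Its log2 ratios to CTX of 0.85 [0.68, 1.02] in TRP-1MV and 0.86 [0.69, 1.03] in the MV left tumor were not called. Gbp3, its neighbor on chromosome 3, was the lowest of the family's GBP ratios, at 0.60 [0.41, 0.79] in TRP-1MV and 0.66 [0.46, 0.86] in the MV left tumor, with 31.4, 32.6, 18.6 and 20.7 CPM in TRP-1MV, the MV left tumor, the remote tumor and CTX. Gbp3, Gbp6 and Gbp7 were higher in TRP-1MV and the MV left tumor than in the other two by more than counting error.

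**Figure D2:**
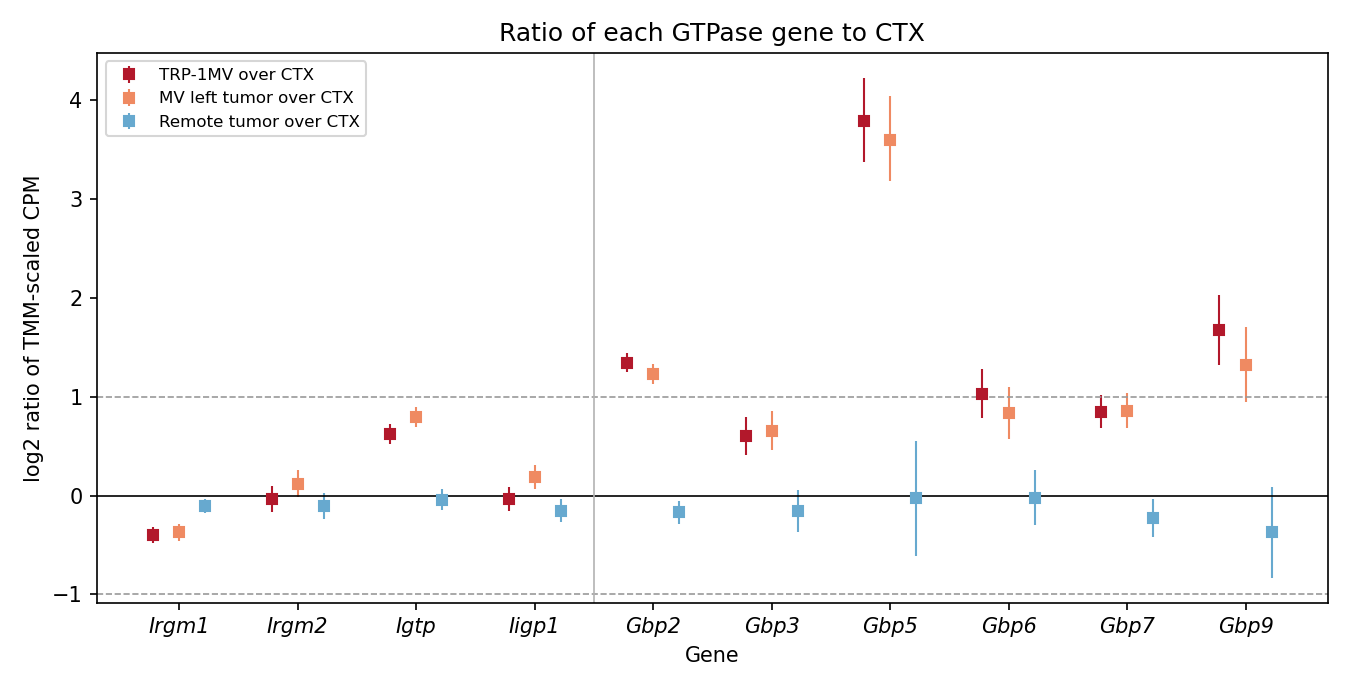
Log2 ratio of each gene to CTX in TRP-1MV, the MV left tumor and the remote tumor, with 95% counting intervals. The dashed lines mark a 2-fold difference. In TRP-1MV the GBP genes run from 0.60 (Gbp3) to 3.79 (Gbp5) and the IRG genes from −0.40 (Irgm1) to 0.62 (Igtp), whereas the remote tumor stays between −0.37 and −0.02.

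Counted over the family, 4 of 10 genes (Gbp2, Gbp5, Gbp6 and Gbp9) were called higher in TRP-1MV against CTX, where 18.5% of all genes compared were, and none was called lower, where 11.7% of all genes were. In the MV left tumor 3 of 10 (Gbp2, Gbp5 and Gbp9) were called higher and none lower, against 18.1% and 11.1% of all genes. The median log2 ratio of the 10 genes was 0.74 in TRP-1MV and 0.82 in the MV left tumor, with −0.07 and −0.05 over all genes. The median was 1.19 for the GBP genes and −0.03 for the IRG genes in TRP-1MV, and 1.04 and 0.15 in the MV left tumor. A housekeeping scale shifted all log2 ratios to CTX up by 0.58 in TRP-1MV and the MV left tumor and gave 7 genes higher in each, all 6 GBP genes and Igtp, although 6 of its 14 scaling genes were called lower with TMM. On that scale 4076 of all genes were higher and 487 lower in TRP-1MV, against 2476 and 1559 with TMM, and 4127 and 463 in the MV left tumor, against 2411 and 1488. Total counts added 0.24, gave 5 members in TRP-1MV and 6 in the MV left tumor, and split all genes into 2973 higher and 931 lower in TRP-1MV and 2955 and 890 in the MV left tumor. The 2 comparisons share the CTX library, so their likeness is not independent.

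**Figure D3:**
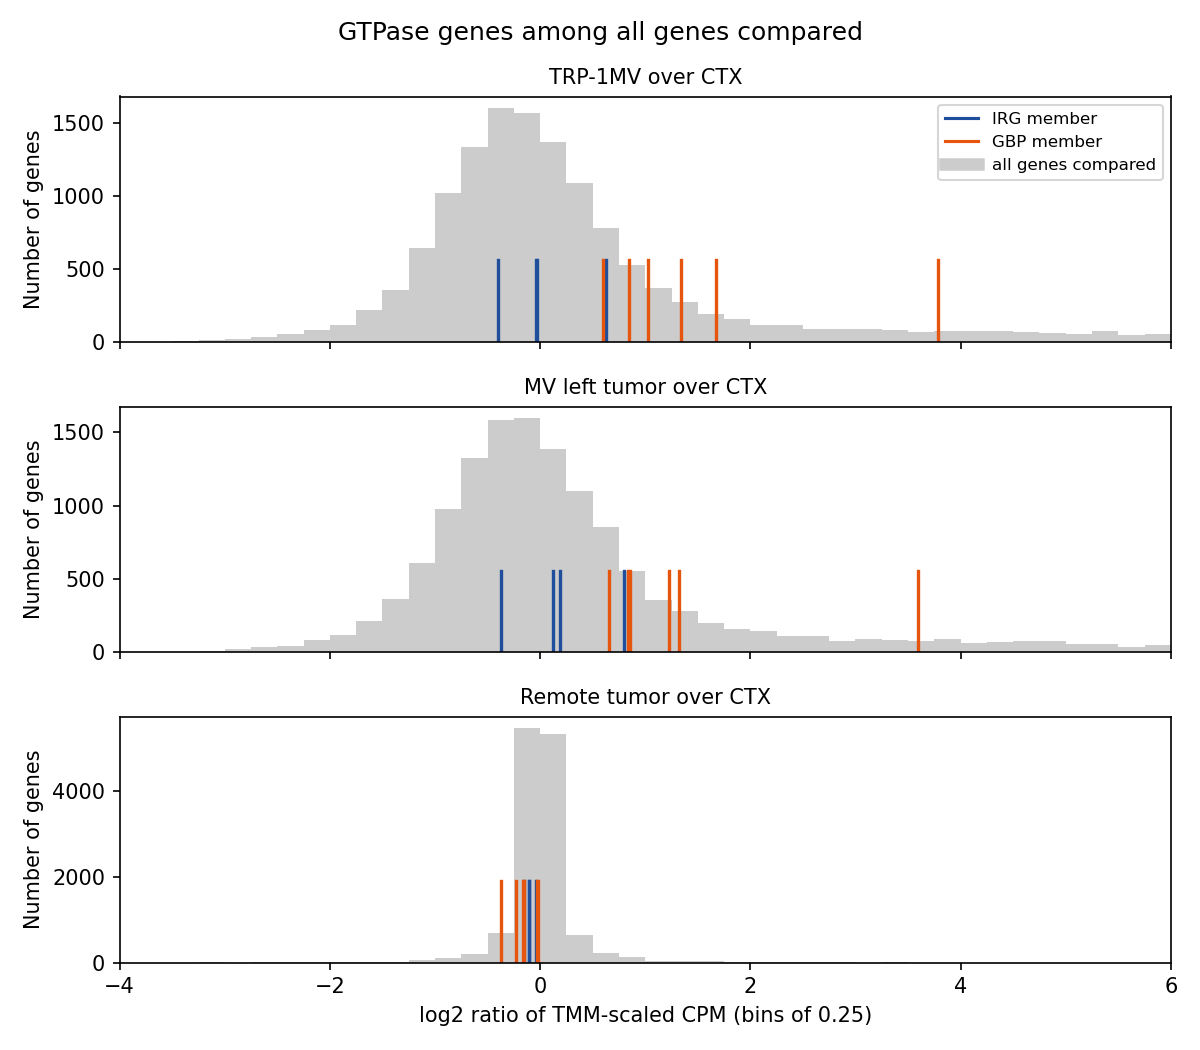
Number of genes by log2 ratio to CTX (grey, bins of 0.25, drawn from −4 to 6), with a line at the ratio of each IRG gene (blue) and GBP gene (orange). In TRP-1MV and the MV left tumor the GBP lines lie to the right of the peak of all genes, and in the remote tumor all 10 lines lie left of 0.

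The remote tumor was set against CTX to ask whether the uninjected side differed. No GTPase gene was called in either direction, where 0.457% of all genes were called higher and 0.247% lower. All 10 log2 ratios were slightly below 0, from −0.37 [−0.83, 0.09] for Gbp9 to −0.02 [−0.30, 0.26] for Gbp6, with a median of −0.13 against 0.00 over all genes. The intervals of 4 genes excluded equality, those of Irgm1 at −0.10 [−0.18, −0.03], Iigp1 at −0.15 [−0.27, −0.04], Gbp2 at −0.17 [−0.28, −0.05] and Gbp7 at −0.23 [−0.42, −0.04]. Under the 4 other scalings the 10 ratios also lay below 0. Gbp5 turned to 0.14 when libraries were thinned to the smallest total, well inside its interval of −0.61 to 0.55.

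The MV left tumor and the remote tumor are the injected and uninjected flanks of 1 treatment. Here 4 of 10 genes were called higher in the MV left tumor, Gbp5 at 3.63, Gbp9 at 1.69, Gbp2 at 1.40 and Gbp7 at 1.09, against 18.6% of all genes. Igtp stood at 0.84 [0.74, 0.94] and Irgm1 at −0.27 [−0.35, −0.18], which turned to 0.34 on the housekeeping scale. TRP-1MV against the remote tumor had those 4 and Gbp6, at 1.05 [0.80, 1.30], called higher, against 18.8% of all genes.

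TRP-1MV was set against the MV left tumor to compare virus carried by T cells with injected virus. No GTPase gene was called, where 0.562% of all genes were called higher and 0.217% lower. Small differences beyond counting error with TMM scaling lay above equality for 3 GBP genes and below it for 3 IRG genes. Gbp9 at 0.35 [0.06, 0.64], Gbp5 at 0.19 [0.01, 0.37] and Gbp2 at 0.12 [0.03, 0.20] were above equality. Iigp1 at −0.22 [−0.35, −0.09], Igtp at −0.17 [−0.26, −0.08] and Irgm2 at −0.15 [−0.30, −0.01] were below it. The upper limit of Irgm2 was −0.009, and DESeq2 size factors added 0.015 to every ratio, so its interval then included equality. Intervals of the other 4 genes included equality, with Gbp6 at 0.19, Gbp7 at −0.01, Irgm1 at −0.03 and Gbp3 at −0.06. With 1 library each, differences of this size between mice or preparations cannot be told apart from the treatment.

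The make-up of the family is a measure that no library scaling can change. GBP genes held 46.8% [45.9, 47.7] of the reads of the 10 genes in TRP-1MV and 42.8% [41.8, 43.8] in the MV left tumor, against 25.5% [24.6, 26.4] in the remote tumor and 26.4% [25.5, 27.3] in CTX. In TRP-1MV and the MV left tumor Gbp2 was the most counted of the 10 genes, with 24.3% of the family reads in TRP-1MV and 22.1% in the MV left tumor. In the other two Irgm1 was, with 34.4% in the remote tumor and 34.1% in CTX, and it held 18.8% in TRP-1MV and in the MV left tumor. Gbp5 made up 5.51% in TRP-1MV and 4.75% in the MV left tumor, against 0.586% in the remote tumor and 0.55% in CTX. For each Irgm1 read there were 0.294 Gbp5 reads in TRP-1MV and 0.253 in the MV left tumor, against 0.017 in the remote tumor and 0.0161 in CTX, a ratio 18.2-fold and 15.7-fold that of CTX in TRP-1MV and the MV left tumor.

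**Figure D4:**
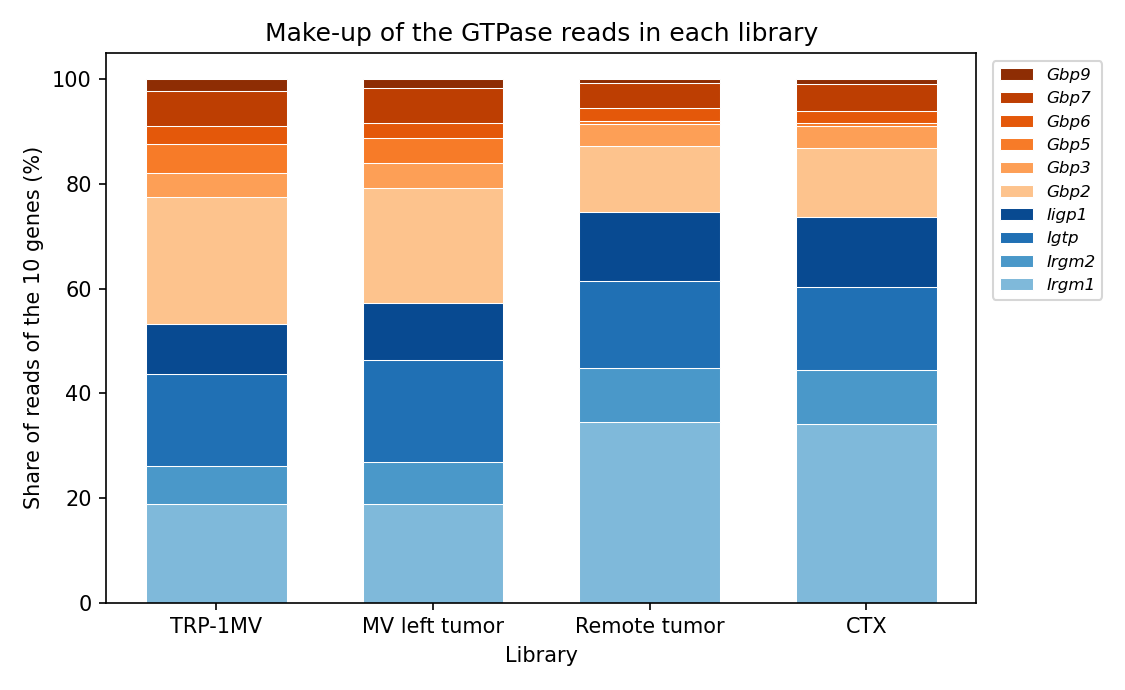
Share of the reads of the 10 genes held by each gene in each library, IRG genes in blue and GBP genes in orange. The orange part makes up 46.8% and 42.8% in TRP-1MV and the MV left tumor, and 25.5% and 26.4% in the remote tumor and CTX.

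Levels were compared between genes per kilobase of merged exon length. In CTX the order ran from Igtp at 38.5, Irgm1 at 29.0 and Gbp2 at 25.9 CPM per kb through Irgm2, Iigp1, Gbp3, Gbp7, Gbp6 and Gbp9 to Gbp5 at 0.409 CPM per kb. The remote tumor had the same order. In the MV left tumor Igtp at 66.8 CPM per kb and Gbp2 at 60.7 CPM per kb led, and in TRP-1MV Gbp2 at 65.8 CPM per kb led Igtp at 59.3 CPM per kb. Gbp5 ranked 8 of 10 in both, at 5.64 CPM per kb in TRP-1MV and 4.95 CPM per kb in the MV left tumor. Neighbors in these orders differed by more than counting error except Iigp1 and Gbp3 in TRP-1MV, at 11.1 and 9.60 CPM per kb. With the longest coding transcript as length, Igtp, Gbp2 and Irgm1 kept the 3 top places in all libraries, Irgm1 led in the remote tumor and CTX, and between 4 and 8 genes changed rank.

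The genes most like the family's median profile over the 4 libraries, among 10595 others with a mean count of at least 100, were Atp11b, Srsf4, Hipk1, Patj, Btbd7 and Wnk1. Their root mean square distance was 0.0128 to 0.0156 on the log2 scale. Wnk1, for instance, had 596 CPM in TRP-1MV and 596 CPM in the MV left tumor, against 332 CPM in the remote tumor and 359 CPM in CTX. With 4 libraries in 2 pairs such likeness describes little more than the step between the pairs.

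Ifng, encoding interferon gamma, had 625 reads in TRP-1MV and 531 in the MV left tumor, against 3 in the remote tumor and 2 in CTX. Ifnb1, encoding interferon beta, had 0 reads in all 4 libraries, which allows up to 0.186, 0.222, 0.151 and 0.156 CPM in TRP-1MV, the MV left tumor, the remote tumor and CTX. The receptor genes Ifngr1 and Ifngr2 had log2 ratios to CTX of 0.69 and 0.06 in TRP-1MV and 0.49 and −0.02 in the MV left tumor, none called. The part of any interferon in the GTPase levels was not tested.

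Of 12 signalling and transcription factor genes, 6 were called higher in TRP-1MV against CTX and 5 in the MV left tumor, against 18.5% and 18.1% of all genes, and none lower. Irf8, a factor of myeloid and B cells, stood highest, at 4.18 [3.91, 4.46] in TRP-1MV and 3.82 [3.55, 4.11] in the MV left tumor. The class II transactivator gene Ciita stood at 2.55 and 2.04, the kinase gene Jak2 at 2.09 and 1.76 and the class I transactivator gene Nlrc5 at 1.21 and 1.08 in TRP-1MV and the MV left tumor. Irf1 at 0.63 and 0.77 and Irf9 at −0.37 and −0.52 in these libraries did not pass the rule. Among the interferon regulatory factors, some thus stood far above CTX and others within 2-fold of it. In the remote tumor none of the 12 was called against CTX, where only 0.457% of all genes were called higher and 0.247% lower.

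Of 8 feedback inhibitors 4 were called higher in TRP-1MV, with Socs1, which blocks interferon gamma receptor signalling, at 2.97 [2.65, 3.29], and 2 in the MV left tumor, with Socs1 at 2.54 [2.21, 2.88], beside the same shares of all genes. The median ratio of other interferon gamma targets was above that of the GTPases. Of 22 measured, 18 were called higher and 1 lower in TRP-1MV, with a median log2 ratio of 2.16, and 17 and 1 in the MV left tumor, with a median of 1.96, where 18.5% and 18.1% of all genes were called higher. In the remote tumor 3 of the 22 were called higher against CTX, Acod1, Nos2 and Icam1, between 1.29 and 1.95, where 0.457% of all genes were. The highest were Nos2, the inducible nitric oxide synthase gene, at 7.73 and 7.00, Acod1, encoding the itaconate-forming enzyme, at 7.56 and 6.96, and the adhesion gene Icam1 at 5.30 and 4.93 in TRP-1MV and the MV left tumor. Nos2, Acod1 and Icam1 had only 7, 14 and 39 reads in CTX, and 22, 56 and 99 in the remote tumor. Wars, a tRNA synthetase gene, was the lower one, at −1.16 and −1.15, a call lost on the housekeeping scale and when total counts were used. The median ratio of type I interferon targets was below it, with 7 of 24 called higher in TRP-1MV and 5 in the MV left tumor, none lower, against 18.5% and 18.1% of all genes, and medians of −0.14 and −0.23, beside GTPase medians of 0.74 and 0.82. The type I medians turned to 0.10 and 0.02 with total counts and to 0.43 and 0.35 on the housekeeping scale.

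Related GTPases outside the 10 genes were mixed as well. Of 18 measured, 5 were called higher in TRP-1MV and 4 in the MV left tumor, none lower, not far from the 18.5% and 18.1% of all genes, with medians of 0.02 and 0.32. On the housekeeping scale 8 and 8 were called higher, beside 30.5% and 30.9% of all genes, and the medians were 0.60 and 0.90. Gm5431 had 71 and 52 reads in TRP-1MV and the MV left tumor against 2 in the remote tumor and 7 in CTX, a log2 ratio to CTX of 3.59 [2.48, 4.96] and 3.40 [2.25, 4.78]. The dynamin-like GTPase gene Mx1 stood at 3.45 and 2.87, and Gm12250, known as Irgb10, an effector IRG that acts on bacterial membranes, at 1.13 and 1.08. Gbp4 at 0.60 and 0.60, Ifi47 at −0.12 and 0.13, and Tgtp2 at −0.39 and −0.19, did not pass. Tgtp1 at −0.04 and 0.00 did not pass either. Other GBP genes were mixed. Gbp8 had 3.91 and 2.81 CPM in TRP-1MV and the MV left tumor, against 1.15 CPM in CTX, and Gbp2b had 1.30 and 1.04 against 0.574 CPM. Gbp10 had 4.28 and 4.88 CPM in these libraries against 5.89 CPM in CTX, and Gbp11 had 1.86 and 2.29 against 1.83 CPM.

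Among 18 genes of autophagy and vacuole recognition, which hold the conjugation genes as well as ubiquitin ligases, an adaptor and galectins, 1 was called higher in TRP-1MV and in the MV left tumor, where 18.5% and 18.1% of all genes were. It was Lgals3, encoding a galectin of damaged membranes, at 1.72 in TRP-1MV and 1.37 in the MV left tumor. With total counts 3 and 4 of the 18 were called, and 7 and 7 on the housekeeping scale. Atg5 at −0.26 and −0.27 and Atg7 at −0.41 and −0.54 did not pass. The inflammasome genes, through which GBP proteins set off cell death, had 7 of 10 called higher in TRP-1MV and in the MV left tumor. Their medians were 3.45 and 3.13, and 18.5% and 18.1% of all genes were called higher. Under each scaling the number stayed at 7. The shares of all genes were 22.3% and 22.1% with total counts and 30.5% and 30.9% on the housekeeping scale. Nlrp3 stood at 6.19 and 5.44, Aim2, a DNA sensor gene, at 5.54 and 5.16 and Casp4, the lipopolysaccharide-sensing caspase-11 gene, at 2.94 and 2.52. Nlrp3 and Aim2 had only 6 and 4 reads in CTX. The 3 genes not called were Pycard, Il18 and Ninj1. Pycard had 18.6 and 17.2 CPM in TRP-1MV and the MV left tumor, against 17.6 CPM in CTX. Il18 had 1.55 and 2.59 CPM in these libraries against 2.92 CPM in CTX, and Ninj1 had 75.3 and 65.8 against 95.5 CPM. Nlrp3 and Il1b were also called higher in the remote tumor against CTX, at 2.06 [0.75, 3.63] and 2.62 [1.69, 3.68], where 0.457% of all genes were. Il1b had 70 reads in the remote tumor and 11 in CTX.

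Many cell type markers differed between the same libraries as the GBP genes, and their part in the GBP levels was not tested. In bulk tumors fewer cells of a type and less RNA per cell cannot be told apart. Ptprc, the pan-leukocyte gene, had 147 CPM in TRP-1MV and 141 CPM in the MV left tumor, against 2.61 CPM in the remote tumor and 3.34 CPM in CTX. All 6 T cell markers, all 4 B cell markers and 6 of 8 macrophage and monocyte markers were called higher than CTX in TRP-1MV and in the MV left tumor. So were 3 of 3 measured neutrophil markers, 2 of 3 dendritic cell markers and 2 of 3 endothelial markers. Of all genes, 18.5% were called higher in TRP-1MV and 18.1% in the MV left tumor. For the remote tumor against CTX, 1 of 8 macrophage and monocyte markers was called higher. The same held for 1 of 3 dendritic cell and 1 of 3 neutrophil markers, where 0.457% of all genes were called higher. None of these calls remained when libraries were thinned to the smallest total. Summed macrophage and monocyte markers reached 1300 CPM in TRP-1MV and 895 CPM in the MV left tumor, against 76.7 CPM in the remote tumor and 63.4 CPM in CTX. T cell markers summed to 119 and 120.1 CPM in TRP-1MV and the MV left tumor, against 2.41 and 2.50 CPM in the remote tumor and CTX. All 7 melanocyte markers were called lower than CTX in TRP-1MV and in the MV left tumor, where 11.7% and 11.1% of all genes were. Melanocyte markers summed to 5379 and 5743 CPM in TRP-1MV and the MV left tumor, against 25141 and 24712 CPM in the remote tumor and CTX. Of the 4 B cell markers 2 were at 0 in CTX. NK cell markers summed to 0.435, 0.296, 0.251 and 0.261 CPM in TRP-1MV, the MV left tumor, the remote tumor and CTX, and fibroblast markers to 34.7, 33.5, 30.3 and 31.2 CPM. None of the 4 fibroblast markers was called with TMM, but 2 were in TRP-1MV and 1 or 2 in the MV left tumor under the 4 other scalings. Under those scalings 19% to 30.5% of all genes were called higher in TRP-1MV and 18.4% to 30.9% in the MV left tumor. The genes Rn45s, Lars2 and Rpph1, in which ribosomal and other structural RNA is counted, held 1.62% of counts in TRP-1MV and 1.64% in the MV left tumor, against 0.164% in the remote tumor and 0.141% in CTX.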

How the data were processed

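RNA-seq was available for 4 tumor libraries, 1 per group. The authors deposited raw counts per gene symbol, whole numbers with no normalization. Per the submitters' processing notes, HISAT2, featureCounts and the build mm10 were used, without versions. Not given in the sources used here are the annotation, strand setting and treatment of multi-mapped reads.

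Counts were scaled with TMM factors (edgeR 4.0.16, R 4.3.3). Ratios and exact conditional binomial (Clopper-Pearson) 95% intervals were computed with scipy 1.17.1 in Python 3.11.15. PCR reads carry no molecular identifiers, so intervals and floors cover counting error only. Genes with a mean count of at least 10 were compared. A library at 0 reads was set to a floor of 3 counts, and no ratio was given where both had 3 or fewer. With 1 library per group no test was possible. The ratio and interval calculation was tested on simulated data. Merged exon lengths and positions came from GENCODE M21, which matched 24321 of 25239 symbols to 1 gene. Promoters came from RefSeq. A protein motif search planned for these genes was not run. Some genes that the naming rule selects are not reported here.

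The genes named were the 10 members, from each list mainly the 3 highest and 3 lowest ratios, the inducer Ifng and transcription factor genes, and the 6 genes with the most similar profile. The members, lists and comparisons were chosen with earlier results of these data known. Alternatives were scaling by total counts, by upper quartiles, by DESeq2 1.42.0 or by 14 housekeeping genes, other count minimums, folds of 1.5 and 4, and thinning to the smallest total. The longest coding transcript as length and family shares without Gbp5 or without Gbp6 and Gbp9 were added after the data were seen.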

Additional observations from a re-analysis of the deposited data

How the results depend on the processing

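No paired analysis was possible because no group had a second library, and for the same reason no replicate could be left out. The number of genes called higher was the same in all 6 comparisons under DESeq2 size factors, upper-quartile factors and both other count minimums, and no member was called lower under any setting. Against CTX, 4 genes were called higher in TRP-1MV and 3 in the MV left tumor. With total counts these were 5 and 6, beside 22.3% and 22.1% of all genes, and on the housekeeping scale 7 and 7, beside 30.5% and 30.9%. At a fold of 1.5 they were 7 and 7, beside 25.1% and 25.3% of all genes, and at a fold of 4 they were 1 and 1, close to the 11.2% and 10.9% of all genes. Against the remote tumor, 5 were called higher in TRP-1MV and 4 in the MV left tumor. With total counts these were 6 and 7, beside 23.1% and 23.3% of all genes, and on the housekeeping scale 7 and 7, beside 32.2% and 32.8%. At a fold of 1.5 they were 7 and 7, beside 25.9% and 26.0% of all genes, and at a fold of 4 they were 2 and 1, beside 11% and 10.7%. Thinning gave 5 in TRP-1MV and 5 in the MV left tumor, where Gbp6 was added. A scaling adds 1 constant to every ratio of a comparison. No ratio that was called changed sign. The share of GBP reads was 43.6%, 40.1%, 23.0% and 23.9% in TRP-1MV, the MV left tumor, the remote tumor and CTX without Gbp6 and Gbp9, and 43.7% and 39.99% in TRP-1MV and the MV left tumor without Gbp5, settings chosen after the data were seen. In the remote tumor and CTX Gbp5 held only 0.586% and 0.55% of the family reads. Over all genes, a mean count of at least 50 gave 1575 higher in TRP-1MV against CTX and a fold of 4 gave 1497, against 2476, and for the remote tumor against CTX a fold of 1.5 gave 98 higher and 82 lower, against 61 and 33. Depth limits Gbp5 and Gbp9 most, with 52 and 92 reads in CTX.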
